A study of Mus musculus with 12 samples.

Results

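Lysosomal genes were followed in mouse CD115+ monocytes of the spleen and the peripheral blood, with the liver intact or 24 hours after resection of 70% of its mass. The 52 genes were taken from a list by symbol, with the condition of at least 10 counts in 3 or more libraries, and all 52 of 52 listed genes met it, among 52553 features in the count tables. They comprised 12 proteases, 16 glycosidases and sulfatases, 8 lipid enzymes and soluble cofactors, 8 membrane proteins, 5 proton pump genes and 3 transcription factors. The list was drawn up with earlier results of these data known, so the counts of genes given here describe the list and are not independent evidence of its direction. Atp6v0d2 lay just inside the condition, with 12 and 13 counts in 2 resected blood libraries and 27 in 1 intact blood library and from 1 to 8 counts in the other 9, and no listed gene lay outside it. The other 51 genes had at least 10 counts in all 12 libraries.

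The animals were male C57BL/6 mice with the spleen in place. Each of the 4 groups (intact spleen, resected spleen, intact blood, resected blood) had 3 libraries, and each library was made from the cells of 5 mice pooled, so values of single animals cannot be seen. The labels do not say whether the libraries of a group were prepared independently, and p-values measure the spread between these libraries. Splenic cells were released mechanically and with collagenase and red cells were lysed, steps that the paper does not describe for blood. Both were then separated on Ficoll and sorted with anti-CD115 magnetic beads. The controls were intact animals, and no operated group without resection was among the libraries.

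Lysosomes are acidic compartments in which proteases, glycosidases, sulfatases and lipid hydrolases break down material that a cell has engulfed or recycles. A proton pump (the V-ATPase) acidifies the lumen, and heavily glycosylated membrane proteins line it. Monocytes and macrophages are rich in lysosomes, in which they digest ingested cells and microbes and process antigens. The transcription factors TFEB, TFE3 and MITF bind short E-box sequences in the promoters of many lysosomal genes.

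That element was looked for in the RefSeq promoters of mouse build GRCm38.p6, which run from 250 bases before to 50 bases after the start of a gene and were matched by symbol for 46 of the 52 genes. The sequence TCACGTGA, which reads the same on both strands and contains CACGTG, was present in 6 of the 46 genes (13%) and in 1.12% of all genes with a promoter in the table. Its inner part CACGTG was present in 15 of the 46 (32.6%) and in 8.09% of all genes. These matches are descriptions of the letters, not of bound sites. The stretches are shown for the 6 genes with the longer form and for Lamp1, whose promoter held 4 copies of CACGTG, because they span genes that changed and genes that did not. Each is 30 bases, read 5′ to 3′ on the strand of the gene, with the element in capitals.
Ctsa, chr2:164833749-164833778, plus strand: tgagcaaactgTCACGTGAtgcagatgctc
Ctsd, chr7:142387908-142387937, minus strand: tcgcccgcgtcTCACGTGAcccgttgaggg
Gla, chrX:134601215-134601244, minus strand: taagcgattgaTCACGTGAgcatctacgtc
Lamp1, chr8:13159127-13159156, plus strand: gactggCACGTGaccacatCACGTGcggaa
Mcoln1, chr8:3500462-3500491, plus strand: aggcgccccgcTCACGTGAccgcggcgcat
Atp6v0d1, chr8:105566050-105566079, minus strand: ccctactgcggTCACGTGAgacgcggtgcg
Atp6v1a, chr16:44139373-44139402, minus strand: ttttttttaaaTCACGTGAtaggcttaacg

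Depth was similar in all libraries, with 36990033 to 46401368 estimated counts. Haemoglobin genes took 13.2% to 34.2% of the counts in blood and 0.0814% to 3.47% in spleen. Csf1r, the gene of CD115, was present in every library at 209 to 1192 CPM (counts per 1000000 counts of the library, scaled with TMM factors), and markers of other cells were present too. Of the 12 libraries 3 stood apart from the others of their group. Intact blood 3 had the highest sum of 5 T-cell markers (1941 CPM, against 550 and 557 CPM in intact blood 1 and 2), resected spleen 3 had 14449 CPM of 9 neutrophil markers (5062 and 5377 CPM in its group), and resected blood 3 had 18856 CPM of these markers (3565 and 4284 CPM). Counts of genes are therefore also given without these libraries. Not every marker followed its sum. Cd5, of the T-cell list, had 2327, 2117 and 520 counts in intact blood 1, 2 and 3. Of the neutrophil list, Ly6g had 1196, 1282 and 1074 counts in resected spleen 1, 2 and 3. Camp, of the same list, had 1152, 649 and 571 counts in resected blood 1, 2 and 3. Over all libraries the summed B-cell markers ran from 485 to 4447 CPM with the highest values in intact spleen, NK-cell markers from 8.28 to 284 CPM, conventional dendritic cell markers from 18.1 to 102 CPM and plasmacytoid dendritic cell markers from 154 to 660 CPM.

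Most of the lysosomal genes of blood monocytes were higher after liver resection. In edgeR's quasi-likelihood test 39 of the 52 were higher at a Benjamini-Hochberg adjusted p under 0.05 and 0 were lower, where 10.8% of all 20135 features tested were higher and 10.3% lower. Their median log2 fold change was 1.25, against −0.10 over all features, and 31 of the 39 changed by more than 1 on the log2 scale. The 3 resected libraries lay above the 3 intact ones without overlap for 42 genes, against 19.4% of all features. Together the 52 genes took 0.692% to 0.787% of gene counts in intact blood and 1.53% to 1.83% in resected blood. In bulk libraries fewer cells of a type and less RNA per cell cannot be told apart.

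**Figure D1:**
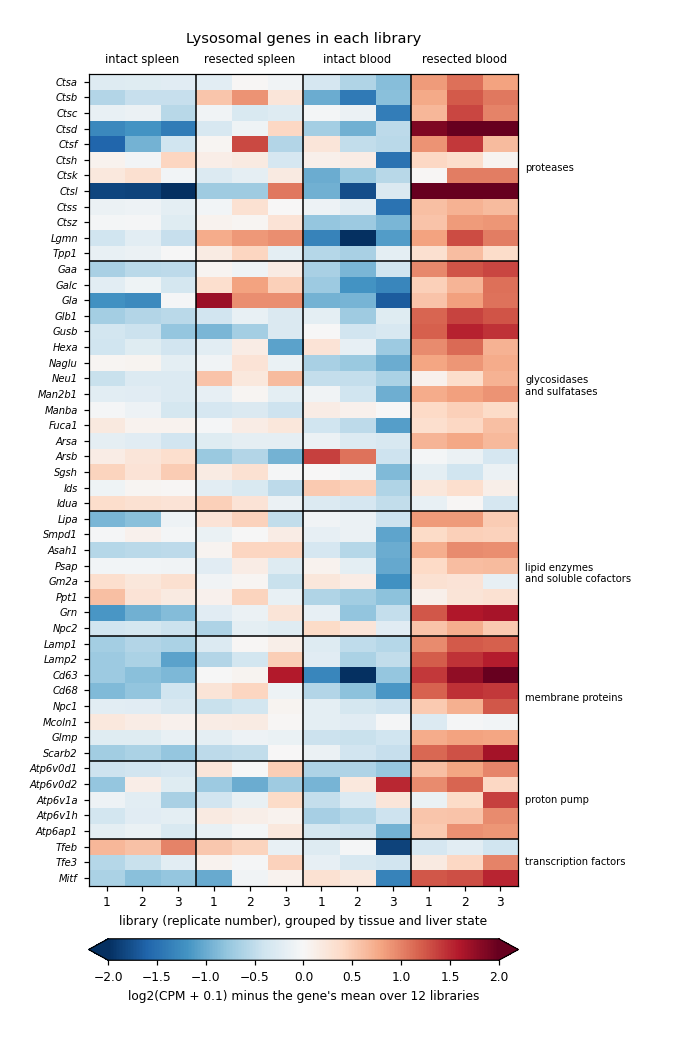
Each row is 1 of the 52 lysosomal genes and each column 1 of the 12 libraries, grouped by tissue and liver state. Colour gives log2(CPM + 0.1) minus the mean of the gene over the libraries, cut at 2 in both directions, and the 3 resected blood columns are the reddest in most rows, with Arsb, Sgsh, Mcoln1 and Tfeb among the exceptions.

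Of the 12 proteases, 10 rose in blood after resection. Ctsd, the aspartic protease cathepsin D, stood at 506, 413 and 564 CPM in intact blood and at 2935, 3482 and 3390 CPM in resected blood. Every resected library was far above the highest intact one, and the log2 fold change was 2.73 ± 0.22 (SE, n = 3 per group, adjusted p = 0.000394). Lgmn, the asparaginyl endopeptidase legumain that trims other cathepsins to their mature form, was at 82.3, 46.8 and 96.6 CPM in intact and at 364, 515 and 426 CPM in resected blood. Its log2 fold change was 2.53 ± 0.26 (adjusted p = 0.000612). Ctsz, a carboxypeptidase, went from 186, 193 and 169 CPM to 474, 577 and 586 CPM, a log2 fold change of 1.58 ± 0.14 (adjusted p = 0.000428), with both groups tightly clustered.

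Ctsl, the cysteine protease cathepsin L, had the largest estimate among all 52 genes. Its level was 65.4, 37 and 105 CPM in intact blood and 763, 1145 and 1442 CPM in resected blood, and its log2 fold change of 4.02 carried a larger error (0.58, adjusted p = 0.00215). The remaining risers among the proteases were Ctsb (2.08), Ctsk (1.71, at under 2 CPM in every library), Ctsa (1.51), Ctsc (1.42), Ctss (1.12) and Tpp1 (0.90). Ctsb encodes cathepsin B and Ctss cathepsin S, which cleaves the invariant chain during antigen presentation. Ctsf (1.24 ± 0.50, adjusted p = 0.105) and the aminopeptidase Ctsh (0.53 ± 0.36, adjusted p = 0.326) did not pass in edgeR's test. DESeq2 called Ctsf higher (1.26, adjusted p = 0.0491). The intact and resected libraries of Ctsh overlapped, those of Ctsf did not.

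**Figure D2:**
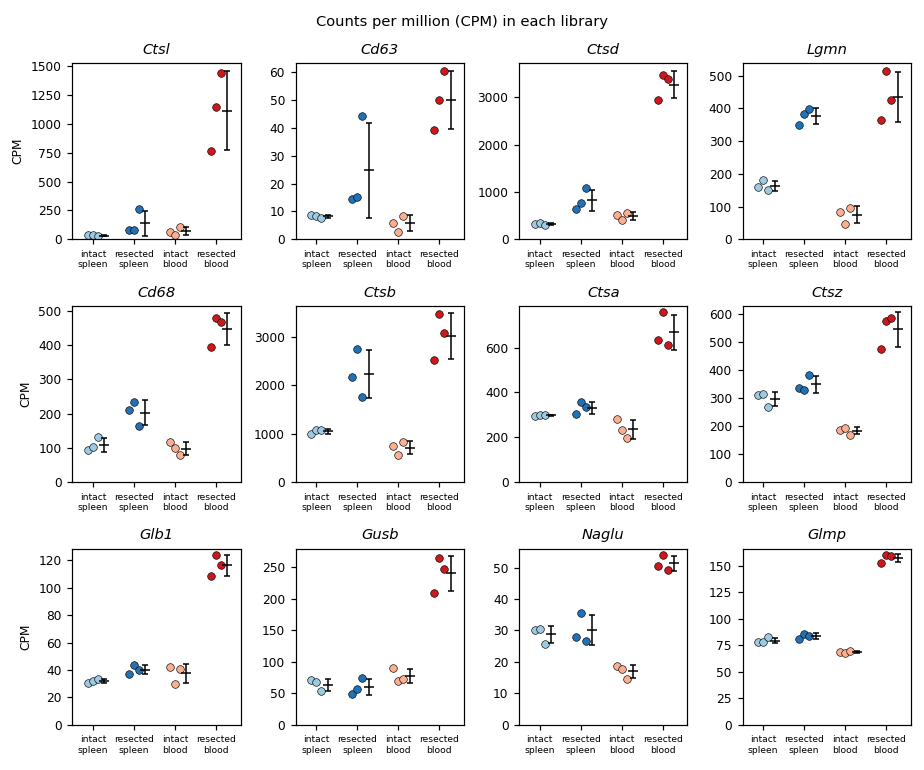
Points are the CPM of single libraries (replicates 1 to 3 from left to right), and the black marks give the mean and SD of 3 libraries, for the 6 genes with the largest estimates in blood and the 6 whose resection effect differed between tissues. The resected blood libraries lie above the intact blood libraries in all 12 panels, and only some panels show a step in the spleen. Each vertical axis starts at 0 and has its own scale.

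Among the 16 glycosidases and sulfatases 11 rose in blood and the others did not pass. Gaa, the acid alpha-glucosidase that degrades glycogen, was at 58.6, 49.0 and 69.6 CPM in intact and at 180, 220 and 233 CPM in resected blood (log2 fold change 1.84 ± 0.16, adjusted p = 0.000428). Glb1, the acid beta-galactosidase, was at 42.3, 29.5 and 41.0 CPM and then at 109, 124 and 116 CPM (1.63 ± 0.15, adjusted p = 0.000428). Naglu, an enzyme of heparan sulfate degradation, was at 18.7, 17.6 and 14.7 CPM and then at 50.6, 54.1 and 49.3 CPM (1.59 ± 0.15, adjusted p = 0.000489). For these 3 genes every resected library was above every intact one and the groups were narrow. The other risers were Gla (1.98), Galc (1.84), Gusb (1.63), Man2b1 (1.26), Fuca1 (1.10), Hexa (1.09), Arsa (0.94) and Neu1 (0.93).

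Manba, Sgsh, Ids, Idua and Arsb did not pass. The first had a log2 fold change of 0.34 ± 0.12 (adjusted p = 0.0626), and Sgsh, Ids and Idua, all enzymes of glycosaminoglycan breakdown, had estimates between 0.02 and 0.23. Arsb, the sulfatase of N-acetylgalactosamine in dermatan and chondroitin sulfate, was the gene with an estimate below 0 (−1.02 ± 0.35, adjusted p = 0.0634). Intact blood had 109, 90.2 and 31.7 CPM of it and resected blood 41.0, 39.1 and 33.4 CPM. The low value of intact blood 3 made the groups overlap. Without that library the log2 fold change was −1.40 ± 0.14 (adjusted p = 0.00138), and DESeq2 on all libraries also called Arsb lower (−1.01, adjusted p = 0.0285). DESeq2 called Manba higher (0.37, adjusted p = 0.00665), where it called 30.4% of all features in either direction.

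Of the 8 lipid enzymes and soluble cofactors 6 rose. Grn, which encodes progranulin, a secreted protein that is cut into granulins in lysosomes, was at 345, 222 and 276 CPM in intact and 911, 1172 and 1209 CPM in resected blood (1.97 ± 0.21, adjusted p = 0.000717). Asah1, the acid ceramidase, was at 68.0, 57.7 and 43.4 CPM and then at 143, 167 and 164 CPM (1.49 ± 0.17, adjusted p = 0.000983). Ppt1, a palmitoyl-protein thioesterase, was at 87.5, 82.6 and 75.9 CPM and then at 143, 160 and 165 CPM (0.93 ± 0.17, adjusted p = 0.00567). In each of these genes the libraries of the states were separate. The acid lipase Lipa (0.94), the saposin precursor Psap (0.86) and the acid sphingomyelinase Smpd1 (0.83) also rose, by less than 1 on the log2 scale. Psap no longer passed without the libraries that stood apart (0.57, adjusted p = 0.0554). The cholesterol carrier Npc2 (0.45, adjusted p = 0.102) and the ganglioside activator Gm2a (0.30, adjusted p = 0.545) did not pass in edgeR's test. DESeq2 called Npc2 higher (0.47, adjusted p = 0.0431).

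Of the 8 membrane proteins 7 were higher in resected blood, each by more than 1 on the log2 scale. Cd68, a heavily glycosylated protein of macrophage lysosomes and endosomes, was at 116, 99.3 and 77.7 CPM in intact and 394, 480 and 468 CPM in resected blood (2.20 ± 0.21, adjusted p = 0.000499). Lamp1, a major protein of the lysosomal membrane, was at 342, 287 and 276 CPM and then at 783, 960 and 934 CPM (1.56 ± 0.16, adjusted p = 0.000614). Glmp, a small glycosylated membrane protein, was at 68.5, 67.3 and 69.4 CPM and then at 153, 160 and 159 CPM (1.20 ± 0.09, adjusted p = 0.000394). The values of Glmp varied least within the groups, and its error was the smallest of the list. Cd63, a tetraspanin of late endosomes, had a log2 fold change of 3.12 ± 0.51 at levels of 2.80 to 8.54 CPM in intact and 39.4 to 60.4 CPM in resected blood. Its value is uncertain, because the mouse gene table also lists the pseudogene Cd63-ps and the counting of shared reads is not stated. Lamp2 (1.86), Scarb2 (1.69), a transmembrane protein of lysosomes, and the cholesterol exporter Npc1 (1.18) rose as well.

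The calcium channel Mcoln1 was the membrane protein that did not pass. It was at 31.6, 31.1 and 35.7 CPM in intact and at 30.1, 35.7 and 35.0 CPM in resected blood. The log2 fold change was 0.03 with an approximate 95% interval from −0.19 to 0.26. Its promoter is one of those shown above with the longer element.

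In the proton pump 3 of 5 genes rose. Atp6v0d1, a subunit of the membrane sector, was at 69.1, 68.8 and 62.2 CPM in intact and 160, 183 and 209 CPM in resected blood (1.46 ± 0.15, adjusted p = 0.000644). Atp6v1h, a regulatory subunit of the cytosolic sector, was at 30.0, 32.3 and 35.7 CPM and then at 70.1, 71.0 and 92.5 CPM (1.25 ± 0.13, adjusted p = 0.00067). The accessory subunit Atp6ap1 was at 160, 154 and 107 CPM and then at 295, 386 and 378 CPM (1.33 ± 0.19, adjusted p = 0.00181). All 3 were separate between the states. Atp6v1a, the catalytic subunit, had 32.9, 37.9 and 54.5 CPM against 41.7, 60.1 and 118 CPM and did not pass (0.81 ± 0.37, adjusted p = 0.146). Atp6v0d2, a subunit known from osteoclasts and macrophages, was below 1 CPM in all libraries, and no difference was detectable at this depth (adjusted p = 0.813).

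Of the transcription factors, Tfe3 and Mitf rose and Tfeb did not pass. Tfe3 was at 61.9, 55.9 and 53.0 CPM in intact and 78.4, 92.2 and 139 CPM in resected blood (0.86 ± 0.22, adjusted p = 0.0205). Mitf was at 14.3, 13.5 and 4.57 CPM and then at 27.7, 28.4 and 33.7 CPM (1.47 ± 0.40, adjusted p = 0.0287). Tfeb was at 43.9, 51.8 and 14.4 CPM and then at 41.7, 45.5 and 39.7 CPM, so its groups overlapped (0.20 ± 0.38, adjusted p = 0.744).

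Set beside the promoter matches, 11 of the 15 genes with CACGTG rose in blood, with a median log2 fold change over the 15 of 1.56. Among the 31 matched genes without it 24 rose, with a median of 1.10. Of the 6 genes with TCACGTGA, Ctsa, Ctsd, Gla and Atp6v0d1 rose and Mcoln1 and Atp6v1a did not pass. Genes on both sides of this split thus rose in most cases, and the difference between them was not tested.

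Leaving out each library in turn, the number of genes passing in blood ran from 31 to 39, and 30 of the 39 passed in every alternative fit with the same call rule. Without resected blood 2 the genes Ctsc, Ctsk, Ctss, Hexa, Lipa, Psap, Smpd1 and Mitf no longer passed, and without resected blood 3 the same genes apart from Ctsc and with Tfe3. Resected blood 1 decided for 6 genes (Ctss, Hexa, Lipa, Psap, Smpd1 and Mitf) and intact blood 2 for 5 (Hexa, Lipa, Psap, Mitf and Tfe3). Hexa, Lipa and Psap also depended on libraries of other groups. Without the 3 libraries that stood apart 38 genes were higher and Arsb was lower, where 23.9% of all features passed. Other markers moved between the same groups. The sum of 7 peritoneal macrophage markers (such as Gata6, Prg4 and Alox15) was 320 to 983 CPM in intact and 8436 to 12956 CPM in resected blood, with 6 of 7 higher. All 9 neutrophil markers were higher (104 to 327 CPM, then 3565 to 18856 CPM), and so were 9 of 10 red pulp macrophage markers (365 to 615 CPM, then 2669 to 3259 CPM), while the defining red pulp genes Spic and Vcam1 stayed at or below 6.42 CPM in all blood libraries. Gata6, which defines large peritoneal macrophages, was at 2.85 to 5.86 CPM in intact and 17.7 to 23.7 CPM in resected blood. All 5 T-cell markers were lower in resected blood, and platelet markers summed to 79.9 to 286 CPM in intact and 781 to 872 CPM in resected blood, with 1 of 5 higher. The 9 monocyte markers summed to 1259 to 2764 CPM and then 4490 to 8501 CPM, with 2 higher and 2 lower. Their median log2 fold change was 0.16, with 6 estimates above 0 and 3 below, so the sum does not describe each marker. Itgam had 28949, 20570 and 21764 counts in intact and 82569, 95418 and 178980 in resected blood. Cx3cr1 had 1951, 2021 and 797 and then 367, 301 and 187 counts. The part of these markers in the changes of the lysosomal genes was not tested.

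**Figure D3:**
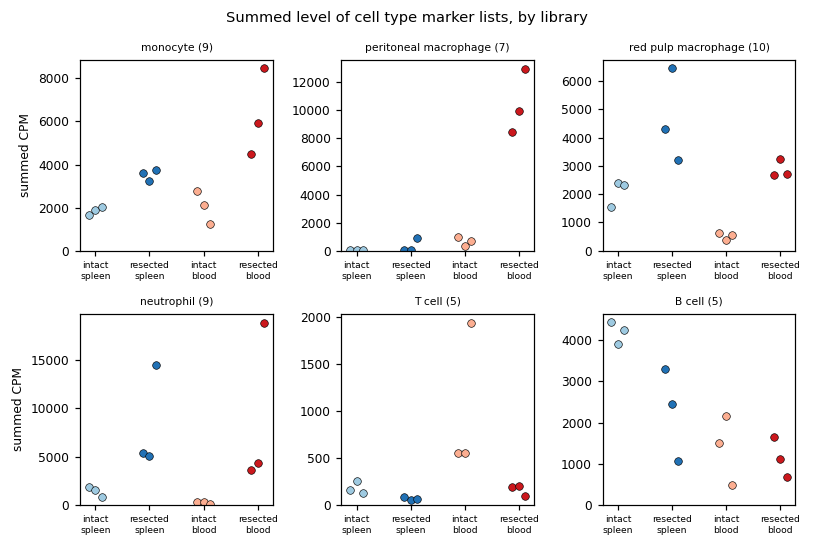
Points are single libraries, and the vertical axis is the summed CPM of a list of cell type markers, with the number of genes in parentheses. Peritoneal macrophage markers are high in the 3 resected blood libraries (8436 to 12956 CPM), neutrophil markers reach 14449 CPM in resected spleen 3 and 18856 CPM in resected blood 3, and T-cell markers reach 1941 CPM in intact blood 3.

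In splenic monocytes 7 of the 52 genes were higher after resection and 0 lower, where 1.02% of all features were higher and 1.03% lower, and the median log2 fold change was 0.23, against 0.05 over all features. The 3 resected libraries lay above the intact ones without overlap for 23 genes (17.4% of all features). The 7 were the proteases Ctsb, Ctsd and Lgmn, the glycosidases Gla and Neu1, and Asah1 and Grn, and all 7 also passed in blood. None of the 8 membrane proteins, 5 proton pump genes or 3 transcription factors passed in edgeR's test. At an unadjusted p under 0.05, 7 of these 16 were higher, where 4182 of the 20135 features had such a p in either direction. DESeq2 called Lamp1, Cd63, Cd68, Atp6v0d1 and Atp6v1h of the 16 higher, where it called 2773 of all features (13.8%).

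Ctsb stood at 995, 1084 and 1073 CPM in intact and at 2176, 2763 and 1764 CPM in resected spleen (log2 fold change 1.09 ± 0.22, adjusted p = 0.042). Ctsd was at 332, 352 and 308 CPM and then at 644, 762 and 1076 CPM (1.32 ± 0.21, adjusted p = 0.0253). Lgmn was at 159, 180 and 151 CPM and then at 350, 382 and 399 CPM (1.21 ± 0.24, adjusted p = 0.0416). In all 3 proteases each resected library exceeded each intact one. Gla, the alpha-galactosidase that degrades globotriaosylceramide, went from 19.4, 18.8 and 44.5 CPM to 148, 86.2 and 86.4 CPM (1.96 ± 0.38, adjusted p = 0.0396). The sialidase Neu1 went from 68.0, 76.5 and 76.4 CPM to 138, 107 and 143 CPM (0.81 ± 0.17, adjusted p = 0.0457). These enzymes of glycolipid and glycoprotein breakdown had nearly the same estimates in blood (1.98 and 0.93). Asah1 was at 58.2, 59.5 and 59.7 CPM and then at 89.7, 116 and 116 CPM (0.86 ± 0.17, adjusted p = 0.0402), and Grn at 172, 198 and 212 CPM and then at 330, 357 and 462 CPM (0.98 ± 0.21, adjusted p = 0.0472).

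All 7 adjusted p-values in spleen lay near the threshold, and the number passing depended on single libraries. Over all features 1 passed (0.00473%) without intact spleen 1, 3 (0.0142%) without intact spleen 2 and 2019 (9.59%) without intact blood 3. Among the 52 genes the number was 0 without intact spleen 1, intact spleen 2, resected spleen 3 or resected blood 2, and 1 without intact spleen 3, resected spleen 2, resected blood 1 or intact blood 1. It was 2 without resected spleen 1, resected blood 3 or intact blood 2, and 14 without intact blood 3 (13 higher, and Arsb lower). The median log2 fold change was 0.11 without resected spleen 2 (0.03 over all features) and 0.16 without intact spleen 3 (0.07 over all features). Without the 3 libraries that stood apart 11 genes were higher and Arsb was lower (−0.91 ± 0.11, adjusted p = 0.0132), where 8.32% of all features passed. On all libraries Arsb fell short of the threshold in spleen, with 47.1, 49.8 and 53.5 CPM in intact and 25.2, 28.1 and 21.9 CPM in resected spleen and no overlap (−1.0 ± 0.35, adjusted p = 0.145). Ctsl was at 35.7, 35.3 and 27.3 CPM and then at 78.0, 77.9 and 264 CPM. Cd63 was at 8.80, 8.20 and 7.83 CPM and then at 14.6, 15.3 and 44.4 CPM. Both had their highest value in resected spleen 3, the library with the high sum of neutrophil markers. Its peritoneal macrophage markers were also high, at 867 CPM against 69.1 and 52.6 CPM in resected spleen 1 and 2. Of these, Saa3 had 1551, 871 and 34473 counts in resected spleen 1, 2 and 3, and Gata6 had 7, 3 and 6. Neither passed on all libraries in edgeR's test (adjusted p = 0.0719 and 0.107). Ctsl did pass without the 3 libraries that stood apart (1.25 ± 0.28, adjusted p = 0.0427) and with DESeq2 (2.08, adjusted p = 0.00131). The summed red pulp macrophage markers were 1534 to 2383 CPM in intact and 3201 to 6452 CPM in resected spleen, with 1 of 10 higher, and neutrophil markers 855 to 1889 CPM and then 5062 to 14449 CPM, with 2 of 9 higher. Summed T-cell markers were 129 to 253 CPM and then 55.2 to 85.8 CPM, NK-cell markers 60.4 to 124 CPM and then 8.28 to 35.9 CPM, and B-cell markers 3910 to 4447 CPM and then 1071 to 3315 CPM. Erythroid markers were at 645 to 2917 CPM in intact and 6968 to 30578 CPM in resected spleen. None of the T-cell, NK-cell, B-cell and erythroid markers passed in edgeR's test. The 6 erythroid markers tested all lay higher in resected spleen without overlap, as did 17.4% of all features. The part of these markers in the splenic changes was not tested.

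**Figure D4:**
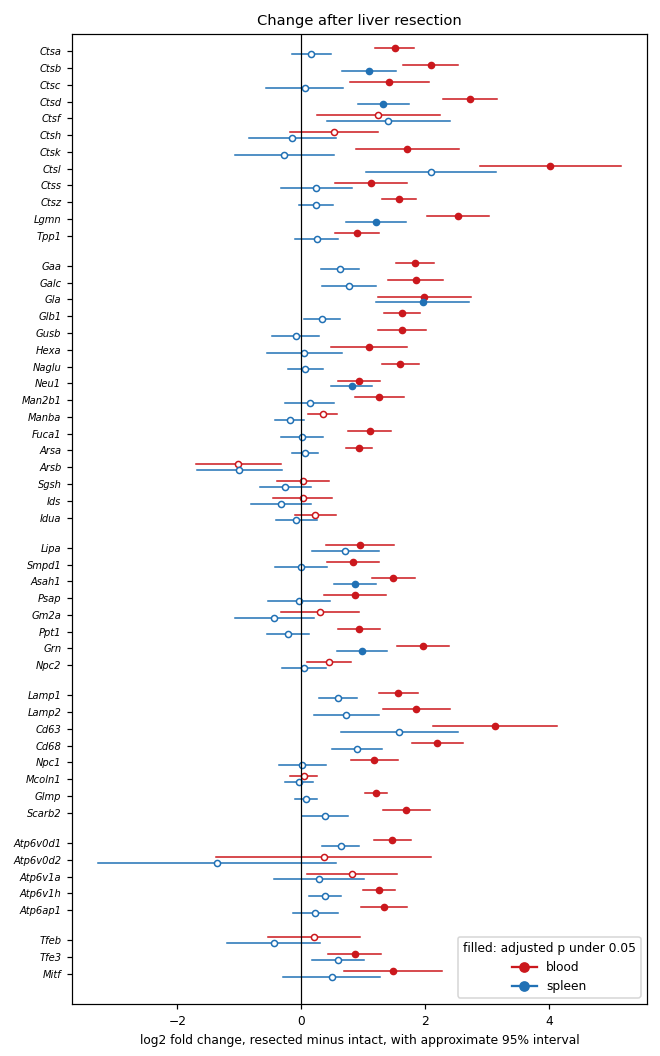
Log2 fold change of each of the 52 genes, resected minus intact, in blood (red) and spleen (blue), with approximate 95% intervals over 3 libraries per group. Filled points passed at an adjusted p under 0.05 (39 in blood, 7 in spleen), and the blood estimate is the higher one for 50 of the 52 genes.

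In intact animals few of the genes passed between blood and splenic monocytes. 7 of 52 were lower in blood and 0 higher, where 4.66% of all features were lower and 4.51% higher. Without overlap, 20 genes lay below the splenic libraries (20.9% of all features). Another 8 lay above them, and this count is not read as a result because its share of all features is not given. The median log2 difference, blood minus spleen, was −0.20, against −0.02 over all features. Leaving haemoglobin genes out moved these medians to −0.09 and 0.10. The direction of the median rested on intact blood 3, without which it was 0.07 (−0.03 over all features), with 29 of the 52 estimates above 0. The 7 genes were Ppt1 (−1.07 ± 0.17, adjusted p = 0.00673), Lgmn (−1.12 ± 0.24, adjusted p = 0.022), Galc (−0.85 ± 0.22, adjusted p = 0.0394), Naglu (−0.76 ± 0.15, adjusted p = 0.0143), Fuca1 (−0.76 ± 0.18, adjusted p = 0.0268), Ctsz (−0.70 ± 0.14, adjusted p = 0.0156) and Idua (−0.68 ± 0.17, adjusted p = 0.0369).

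Ppt1 stood at 202, 161 and 152 CPM in intact spleen, above all of its intact blood values given above. Galc, the galactosylceramidase, was at 14.2, 15.5 and 12.9 CPM in intact spleen and at 9.88, 7.12 and 6.60 CPM in intact blood. Fuca1, the alpha-fucosidase, was at 96.3, 87.6 and 88.1 CPM in spleen and 63.7, 58.0 and 38.9 CPM in blood. For these genes the tissues did not overlap. Ctsz was at 310, 314 and 269 CPM, Naglu at 30.2, 30.5 and 25.7 CPM and Idua at 22.1, 21.3 and 20.9 CPM in intact spleen, with Idua at 14.3, 13.6 and 12.2 CPM in intact blood.

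The number passing was 0 without intact spleen 1, 1 without intact spleen 2, 2 without intact spleen 3 or intact blood 2, and 3 without resected blood 1 or 2. It was 4 without resected spleen 1 or 2, resected blood 3 or intact blood 1, 6 without resected spleen 3, where 5 genes were lower and Ctsd higher (0.68, adjusted p = 0.0409), and 10 without intact blood 3, where 6 genes were lower and Arsb, Ids, Npc2 and Mitf higher. Of all features, 2.65% passed without intact spleen 1 and 9.31% without intact blood 3, the range over these fits. With haemoglobin genes left out, or with RLE in place of TMM factors, 4 genes were lower. Tfeb, at 83.7, 79.1 and 104 CPM in intact spleen, was below all splenic values in blood but did not pass on all libraries in edgeR's test (−1.28 ± 0.39, adjusted p = 0.0675). It did without intact blood 3 (adjusted p = 0.0491) and without the 3 libraries that stood apart (adjusted p = 0.0121). DESeq2 on all libraries also called Tfeb lower (−1.19, adjusted p = 0.0244). In the marker lists, 5 of 9 neutrophil markers and 4 of 10 red pulp macrophage markers were also lower in intact blood than in spleen, and 5 of 7 peritoneal macrophage markers were higher, and their part was not tested.

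After resection 26 of the 52 genes were higher in blood than in splenic monocytes and 0 lower, where 8.54% of all features were higher and 10.6% lower, and 34 genes lay above the spleen without overlap (17.2% of all features). The median log2 difference was 0.68, against −0.14 over all features, and 0.79 against −0.02 with haemoglobin genes left out. By role these were 5 of 12 proteases, 8 of 16 glycosidases and sulfatases, 3 of 8 lipid enzymes and cofactors, 6 of 8 membrane proteins, 3 of 5 proton pump genes and 1 of 3 transcription factors. Ctsz and Naglu were lower in intact blood and higher in resected blood than in the corresponding spleen.

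Among the genes that passed, the largest differences after resection were those of Ctsl (3.00 ± 0.55, adjusted p = 0.00629), Gusb (2.01 ± 0.20, adjusted p = 0.000469) and Ctsd (1.98 ± 0.22, adjusted p = 0.000654). Gusb, the beta-glucuronidase, was at 48.5, 56.5 and 74.3 CPM in resected spleen and at 209, 265 and 247 CPM in resected blood. Glb1 (1.53 ± 0.15, adjusted p = 0.000421) was at 37.1, 43.9 and 39.6 CPM in resected spleen, far below its resected blood values. Glmp (0.92 ± 0.09, adjusted p = 0.000512) was at 80.5, 85.9 and 83.8 CPM there, Scarb2 (1.70 ± 0.19, adjusted p = 0.000793) at 79.5, 81.1 and 115 CPM, and Lamp1 (1.17 ± 0.16, adjusted p = 0.00152) at 336, 416 and 441 CPM. For each of these genes the lowest blood library exceeded the highest splenic one.

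Grn (1.52 ± 0.21, adjusted p = 0.00178), Npc2 (0.94 ± 0.18, adjusted p = 0.00734) and Asah1 (0.56 ± 0.17, adjusted p = 0.0471) were the cofactors and lipid enzymes that were higher in resected blood. In the pump these were Atp6v1h (0.58), Atp6ap1 (0.76) and Atp6v0d1 (0.54), and among the transcription factors Mitf (1.63 ± 0.41, adjusted p = 0.0216). Atp6v0d2 met the count condition only in blood libraries (2 resected and 1 intact), so a higher level in blood partly follows from that condition. With its few counts it had an estimate of 3.04 ± 1.00 that did not pass (adjusted p = 0.0583). It passed with DESeq2 (3.25, adjusted p = 0.023) and without intact blood 1 or, separately, intact blood 3. For the same reason these passes are not independent evidence of a difference. Ctsb, Lgmn and Gla, which passed in both tissues after resection, differed between them by 0.44 ± 0.22, 0.21 ± 0.24 and −0.40 ± 0.37 and did not pass. From 20 to 33 genes passed when each library was left out in turn. Of the 26, 20 passed in every alternative fit, and Asah1, Atp6ap1, Atp6v0d1, Ctsc, Hexa and Mitf each missed the threshold without resected spleen 1 and, separately, without resected blood 2. Without the 3 libraries that stood apart 34 genes were higher, and Sgsh and Tfeb were lower, where 29.4% of all features passed. Between the same groups 6 of 7 peritoneal macrophage markers (median log2 difference 7.36), 5 of 5 platelet, 5 of 6 erythroid and 3 of 5 T-cell markers were higher in blood. Of 10 red pulp macrophage markers 1 was higher and 3 were lower, and of 9 neutrophil markers 0 were higher and 2 lower. Their part in these differences was not tested.

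**Figure D5:**
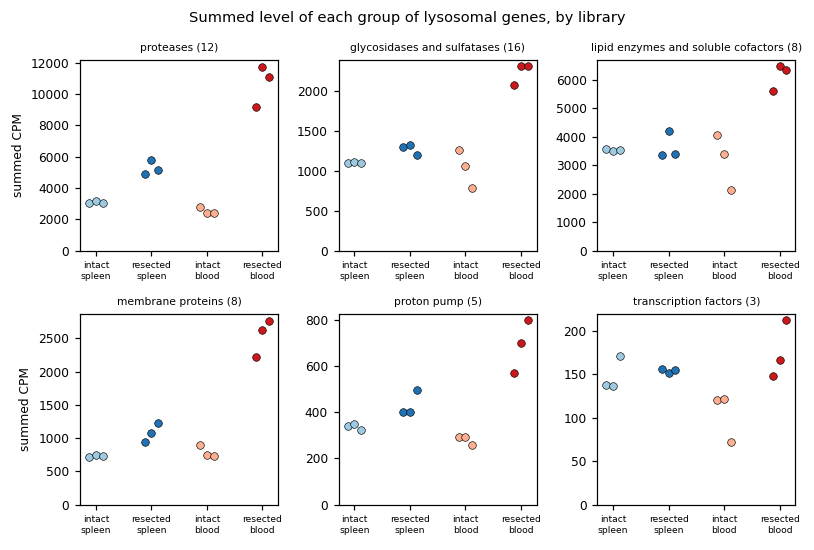
Points are single libraries, and the vertical axis is the summed CPM of the genes of each role, with their number in parentheses. Proteases sum to 9166 to 11727 CPM in resected blood, against 2379 to 2810 CPM in intact blood, 3054 to 3195 CPM in intact spleen and 4887 to 5815 CPM in resected spleen. The sums of the transcription factors overlap between intact spleen, resected spleen and resected blood.

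The difference of the resection effect between blood and spleen was tested as an interaction. 6 of 52 genes had a larger change in blood and 0 a smaller one, where 0.219% of all features had a larger and 0.0646% a smaller change. The estimate was above 0 for 50 genes, the exceptions being Ctsf and Arsb, and the median was 0.99, against −0.12 over all features. At an unadjusted p under 0.05 there were 34 genes, where 3484 of the 20135 features had such a p in either direction. The 6 that passed were the protease genes Ctsa and Ctsz, the glycosidases Gusb, Naglu and Glb1, and Glmp. Cathepsin A forms a complex with the products of Glb1 and Neu1, and of these 3 genes Ctsa and Glb1 passed and Neu1, with nearly equal changes in both tissues, did not (0.12 ± 0.24, adjusted p = 0.845).

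Ctsa was at 295, 298 and 299 CPM in intact and 304, 358 and 333 CPM in resected spleen, and at 279, 232 and 194 CPM in intact and 633, 758 and 613 CPM in resected blood. Its levels in spleen thus rose little while those in blood more than doubled. In spleen the resected libraries of Ctsa, Ctsz and Glb1 still lay above the intact ones without overlap, as for 17.4% of all features. Ctsz in resected spleen was at 335, 327 and 383 CPM, Naglu at 28, 35.7 and 26.8 CPM, and intact spleen was at 30.3, 32.1 and 33.3 CPM for Glb1, 70.6, 67.6 and 53.0 CPM for Gusb and 77.6, 78.0 and 82.5 CPM for Glmp. None of the 6 passed in spleen alone, where their log2 fold changes ran from −0.09 to 0.33 and only Glb1 had an unadjusted p under 0.05. The number passing the interaction was 0 without intact spleen 1, 2 or 3, resected spleen 1, resected blood 2 or intact blood 2. It was 1 without resected blood 3, 2 without resected spleen 2, 3 without resected blood 1, and 5 to 7 without any of the other 3 libraries. The share of all features passing in these fits ran from 0.0236% to 0.447%. DESeq2 called 27 genes, where it called 1621 of all features (8.05%). None of the marker genes of other cells passed the interaction in edgeR's test. An unadjusted p under 0.05 was found for 3484 of the 20135 features in either direction. At this limit the change was larger in blood for 5 of 9 neutrophil (median difference 2.33), 4 of 7 peritoneal macrophage (1.87) and 5 of 10 red pulp macrophage markers (1.41), and smaller for 5 of 6 erythroid markers (−2.88). Their part in the interaction was not tested.

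Genes of the lysosome outside the list were counted in 5 further groups. After resection in blood, 14 of 25 other lysosomal enzymes tested were higher and 0 lower, among them Plbd2 (1.00 ± 0.11, adjusted p = 0.00067) and the mannosidase Man2b2 (1.28). Of 15 other proton pump subunits 12 were higher, among them Atp6v1e1 (1.73), Atp6v0c (1.68) and Atp6v0b (1.30), and Atp6v0a2 was lower (−0.72 ± 0.16, adjusted p = 0.0119). Other membrane proteins were mixed, with 8 of 22 higher and 4 lower and a median of 0.15. Slc11a1, a metal ion transporter of phagosomes, rose (2.77 ± 0.28, adjusted p = 0.000616), as did Tpcn2 (1.43) and Slc15a3 (3.41), whereas the channel Mcoln3 (−2.38 ± 0.47, adjusted p = 0.00714), Abcb9 (−2.66) and Tpcn1 (−0.84) fell. The estimate of Abcb9 rested on intact blood 3 (8.06, 5.76 and 52.3 CPM in intact and 3.88, 4.21 and 2.39 CPM in resected blood), and without that library it was −0.99 ± 0.35 and did not pass (adjusted p = 0.0768). Abcb9 also missed the threshold without intact spleen 2 or any 1 of the resected blood libraries. Tpcn1 missed it in 9 of the 12 fits that left out 1 library, the exceptions being resected spleen 1 and 2 and intact blood 2.

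For the delivery of enzymes to lysosomes, 6 of 13 genes were higher in resected blood, with the retromer subunits Vps29 (0.77) and Vps26a (0.89) and the sorting receptor Sort1 (2.26), and the adaptor Gga3 was lower (−0.73). Of 16 genes of nutrient sensing at the lysosome 12 were higher and Rragb was lower (−1.38 ± 0.30, adjusted p = 0.0109). Among those that rose was Tfec, a relative of TFEB and MITF, at 2.56, 2.65 and 1.31 CPM in intact and 17.3, 29.6 and 38.9 CPM in resected blood (3.72 ± 0.54, adjusted p = 0.00217). Fnip2 (3.12) and Lamtor1 (1.12) rose as well. In spleen 1 of 25 other enzymes (Plbd2, 0.48), 1 of 15 other pump subunits (Atp6v1f, 0.53) and 0 genes of the membrane, delivery and nutrient sensing groups were higher in edgeR's test after resection. Both Plbd2 and Atp6v1f passed in spleen in only 1 of the 12 fits that left out 1 library, the one without intact blood 3.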

How the data were processed

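RNA-seq was made from CD115+ monocytes of spleen and blood, 3 libraries in each of 4 groups, with groups and replicate numbers taken from the labels. For each library the authors deposited a table of estimated counts, and the submitters' processing notes name STAR and build GRCm39, without versions or roles. The counting tool and its handling of shared reads are not given in the sources used here, and the labels (a DNBSEQ strand-specific mRNA library) and the paper's methods (Illumina sequencing) name different platforms. Each table had 67088 entries, of which 2558 unassigned transcripts (1.75% to 4.33% of counts) were left out. Of 40274 accessions 25340 were matched to symbols through the RefSeq gene table of GRCm38.p6, used for names and promoters only. Counts were summed per gene, giving 52553 features, and rounded to whole numbers.

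Features were kept by filterByExpr (20135), scaled with TMM (factors 1.14 to 1.26 in spleen, 0.661 to 1.09 in blood) and fitted with edgeR 4.0.16 (glmQLFit and glmQLFTest, robust, R 4.3.3) over all 12 libraries without covariates, with a common dispersion of 0.312. A gene passed at a Benjamini-Hochberg adjusted p under 0.05 over all features. SE is the absolute log2 fold change divided by the square root of F. The scripts were tested on simulated data. Libraries of one group differed beyond sampling noise (chi-square over its degrees of freedom 19.7 to 575), so each counted as 1 replicate.

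The 52 genes and all lists were chosen with earlier results of these data known. All 52 may be named, with values per library for those that passed in a comparison of 2 groups. With more than 12 such genes, the 3 with the smallest p per role and direction are given in full and the rest by estimate and count. Of the other lists the 3 with the smallest p in each direction are named, and 1 gene that meets this rule is not reported here. Alternatives were DESeq2 1.42.0, RLE factors, no low-count filter, at least 10 counts in every library, an absolute log2 fold change above 1, only the groups compared, haemoglobin genes left out, entries as deposited, the replicate number as a block, each library left out and, chosen after seeing the data, the 3 libraries that stood apart left out. Lists of NK-cell, dendritic cell and platelet markers were also summed.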

Additional observations from a re-analysis of the deposited data

Results flagged for a closer look

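Of the 52 lysosomal genes, 6 had a resection effect that differed between blood and spleen in the interaction test. The differences of the log2 fold changes, blood minus spleen, were 1.72 ± 0.27 for Gusb (adjusted p = 0.0433), 1.53 ± 0.21 for Naglu (adjusted p = 0.0322), 1.35 ± 0.20 for Ctsz (adjusted p = 0.0334), 1.35 ± 0.23 for Ctsa (adjusted p = 0.0467), 1.29 ± 0.21 for Glb1 (adjusted p = 0.0433) and 1.13 ± 0.13 for Glmp (adjusted p = 0.0215), with 3 libraries per group. In all 6 every resected blood library was above every intact blood library. The same held between the splenic libraries for Ctsa, Ctsz and Glb1. All 6 also passed without the 3 libraries that stood apart, which was tried after seeing the data, and none passed with the replicate number as a block. Glmp, with the smallest error, passed in 6 of the 12 fits that left out 1 library.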

How the results depend on the processing

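Over the alternatives that kept the call rule, no gene that passed changed its direction in any of the 5 comparisons. For resection in blood all 39 genes also passed with DESeq2, which added Ctsf, Manba and Npc2 as higher and Arsb as lower. It called 30.4% of all features there. Leaving out 1 library gave 31 to 39 genes passing for resection in blood, 0 to 14 for resection in spleen, 0 to 10 for intact blood against spleen, 20 to 33 for resected blood against spleen and 0 to 7 for the interaction, and fewer libraries also left fewer degrees of freedom. The shares of all features passing were, in the same order, 11.5% to 21.6%, 0.00473% to 9.59%, 2.65% to 9.31%, 8.84% to 28.4% and 0.0236% to 0.447%. In spleen the count of 7 became 15 with DESeq2, 11 with at least 10 counts in every library, 12 without the 3 libraries that stood apart, 4 with the limit on the fold change, with only the groups compared or with entries as deposited, and 1 without the low-count filter. Of all features, 13.8% passed there with DESeq2, 5.71% with at least 10 counts in every library and 8.32% without the libraries that stood apart. The shares were 1.38%, 1.96% and 1.49% in the fits with 4 genes and 0.352% without the filter. In intact animals the count of 7 became 13 with DESeq2 (4 higher and 9 lower) or without the libraries that stood apart (6 higher and 7 lower), 4 with RLE factors, haemoglobin genes left out or entries as deposited, 3 without the low-count filter, and 2 with the fold limit or only the groups compared. Of all features, 18.3% passed there with DESeq2 and 16.4% without the libraries that stood apart. The shares were 8.52%, 8.62% and 7.05% in the fits with 4 genes. They were 3.71% without the filter, 7.35% with the fold limit and 4.9% with only the groups compared. For resected blood against spleen the count of 26 became 15 with the fold limit, where 13.2% of all features passed. The interaction count of 6 became 27 with DESeq2, 16 without the libraries that stood apart and 1 without the low-count filter. The shares of all features in these fits were 8.05%, 2.76% and 0.0668%. The cause of these differences was not tested. The labels do not say whether the replicate numbers pair the libraries. Same-numbered libraries had correlations of their deviations from −0.046 to 0.19. For resected blood against spleen these were 0.042, 0.13 and 0.19. Libraries of different number were not compared, so pairing cannot be judged from these values. With the replicate numbers as a block 36 genes passed in blood, 1 in spleen, 5 in intact animals, 25 after resection and 0 in the interaction. The shares of all features were then 16.7%, 0.954%, 7.05%, 16.1% and 0.00497%. Depth limits mainly Atp6v0d2 and Ctsk, at 1 to 27 and 12 to 58 counts per library.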

Other observations

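The inhibitors of cysteine cathepsins changed as well. Of 6 cystatins and stefins tested, 5 were higher in resected than in intact blood and 2 in resected than in intact spleen. Cstb, which encodes stefin B, an inhibitor of cathepsins in the cytosol, was at 19.5, 18.9 and 22.5 CPM in intact and 69.0, 112 and 166 CPM in resected blood (2.51 ± 0.36, adjusted p = 0.00207). The secreted inhibitor Cst3 (cystatin C) was at 460, 404 and 193 CPM in intact and 851, 855 and 631 CPM in resected blood. The groups of both genes were separate, but Cst3 missed the threshold without intact spleen 2, intact blood 2 or any 1 of the resected blood libraries.

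The stefin A genes Stfa2 and Stfa3 were the 2 that passed in both tissues. Stfa2 was at 0.442, 0.793 and 0.404 CPM in intact spleen, 13.7, 10.4 and 76.4 CPM in resected spleen, 0.193, 0.231 and 0.0655 CPM in intact blood and 10.4, 12.7 and 115 CPM in resected blood. Its highest values were in resected spleen 3 and resected blood 3, the libraries with the highest summed neutrophil markers of their groups. The part of neutrophils was not tested. In spleen Stfa2 and Stfa3 each passed in only 2 of the 12 fits that left out 1 library, those without resected blood 3 or intact blood 3. Stfa3 was at 0 to 0.0514 CPM in intact blood and 3.57 to 39.5 CPM in resected blood. Members of this family have near-identical sequences, and how shared reads were divided between them is not stated.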
